A study of Mus musculus with 14 samples.

Results

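A set of 10 transcription factor genes used as markers of the diencephalon were followed through RNA-seq libraries of mouse embryonic forebrain: Tcf7l2, Gbx2, Lhx9, Shox2, Barhl2, Irx2, Irx3, Pou4f1, Foxb1 and Sim1. They were chosen by name, as genes of the thalamus, habenula, pretectum and hypothalamus, and all 10 were found among the 56941 gene IDs of the deposited tables. The study crossed mice with floxed Sbno1 and floxed Trp53 to the Emx1-Cre driver, whose recombinase acts in the progenitors of the dorsal telencephalon and their descendants. The tissue was telencephalon on embryonic day 12.5 (E12.5) and cerebral cortex on E18.5. The double conditional knockouts (dcKO) were 3 libraries at E12.5 and 4 at E18.5. Their controls (ff), named for their floxed alleles, were 3 libraries at E12.5 and 4 at E18.5. No single knockout and no Cre-only group was analysed here, so loss of Sbno1, loss of Trp53 and the presence of Cre cannot be told apart. Libraries are named by the number that their title carries. Nothing in the labels states whether the libraries of a group came from separate embryos, so the p-values measure the spread between these libraries, which may be technical.

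The diencephalon lies directly behind the telencephalon and gives rise to the thalamus, the habenula, the pretectum and, in the classical scheme, the hypothalamus. Its regions are set up by combinations of transcription factors, and the cut that separates it from the telencephalon in dissection runs along the thalamic eminence, the choroid plexus and the preoptic area. Emx1-Cre is not known for activity in most of the diencephalon. A few of them are also made within the telencephalon, such as Gbx2 in the medial ganglionic eminence and Sim1 in the amygdala.

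In units of 1000000 expected counts, the libraries held between 42.0 and 82.0, except dcKO No 2 at E18.5 with 5.98 and ff No 9 at E12.5 with 4.92. Every dcKO library was male by its Y-linked and Xist counts, whereas ff No 7 at E12.5 and ff No 8 and No 18 at E18.5 were female. Sbno1 counts differed by -0.59 on the log2 scale (dcKO over ff) at E12.5 (SE 0.09, adjusted p = 0.051) and by -0.03 at E18.5 (SE 0.05, adjusted p = 0.68), both from the quasi-likelihood test of edgeR, with p-values adjusted by Benjamini-Hochberg over all genes tested. In TPM (transcripts scaled to a total of 1000000, a level per transcript length) Sbno1 was at 18.78 to 26.19 in the E18.5 dcKO libraries and 14.72 to 18.43 in the ff libraries of that stage. Every dcKO library was thus above every ff library, as was so for 23.1% of all genes tested at that stage, with 7.56% below. Trp53, the other targeted gene, differed by -0.23 at E12.5 (SE 0.09, edgeR adjusted p = 0.22) and by -0.20 at E18.5 (SE 0.06, edgeR adjusted p = 0.032). Because Sbno1, 1 of the 2 targeted genes, was not lower at E18.5, those libraries are called "labelled dcKO" below. In the same test Emx1, the driver's own locus, was lower in dcKO at both stages, with a log2 fold change of -0.96 (SE 0.08, adjusted p = 0.0083) at E12.5 and of -0.81 (SE 0.07, adjusted p = 8.3e-06) at E18.5.

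Of the 10 genes, 9 had a promoter in RefSeq's table for GRCm38.p6 (250 bases before to 50 after the transcription start), with 2 starts for Tcf7l2. The promoters of the 4 genes that were higher at E18.5 are printed, since these are the genes on which the comparison of genotypes turns. Capitals mark GGGCGG, the core of the GC box, read on either strand (CCGCCC on the other), and adjoining or overlapping matches run together.
Tcf7l2: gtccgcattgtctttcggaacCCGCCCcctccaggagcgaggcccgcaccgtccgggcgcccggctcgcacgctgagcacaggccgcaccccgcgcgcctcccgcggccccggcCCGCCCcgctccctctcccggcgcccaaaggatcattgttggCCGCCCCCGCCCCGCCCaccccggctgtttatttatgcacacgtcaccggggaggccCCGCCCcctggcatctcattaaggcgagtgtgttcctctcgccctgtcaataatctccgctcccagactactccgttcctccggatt
Gbx2: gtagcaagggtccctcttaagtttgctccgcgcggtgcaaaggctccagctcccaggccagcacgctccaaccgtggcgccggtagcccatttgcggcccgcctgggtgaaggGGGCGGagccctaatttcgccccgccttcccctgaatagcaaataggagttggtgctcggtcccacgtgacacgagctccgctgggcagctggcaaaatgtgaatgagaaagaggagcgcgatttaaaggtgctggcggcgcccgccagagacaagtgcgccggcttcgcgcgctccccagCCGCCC
Barhl2: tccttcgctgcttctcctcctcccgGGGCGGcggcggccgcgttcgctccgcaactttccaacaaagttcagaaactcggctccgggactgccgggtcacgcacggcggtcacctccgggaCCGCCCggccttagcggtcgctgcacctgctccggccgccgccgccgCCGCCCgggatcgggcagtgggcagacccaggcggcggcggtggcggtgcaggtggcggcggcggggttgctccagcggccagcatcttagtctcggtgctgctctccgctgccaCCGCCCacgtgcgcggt
Pou4f1: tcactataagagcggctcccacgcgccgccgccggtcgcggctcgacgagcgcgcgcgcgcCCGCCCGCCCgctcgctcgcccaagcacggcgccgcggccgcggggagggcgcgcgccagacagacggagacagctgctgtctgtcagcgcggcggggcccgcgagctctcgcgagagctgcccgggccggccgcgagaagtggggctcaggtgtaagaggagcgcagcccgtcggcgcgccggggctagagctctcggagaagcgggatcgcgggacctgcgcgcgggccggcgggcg
They lie at chr19:55741560-55741859 on the plus strand (Tcf7l2, the first of its starts), chr1:89931127-89931426 on the minus strand (Gbx2), chr5:106458117-106458416 on the minus strand (Barhl2) and chr14:104467950-104468249 on the minus strand (Pou4f1). GGGCGG was in 6 of the 10 promoters of these genes and in 35.6% of all 32817 promoters in the table. The 4 printed promoters were rich in G and C, at 70.0% (Tcf7l2), 64.7% (Gbx2), 73.7% (Barhl2) and 78.3% (Pou4f1), against a median of 52.7% over all promoters. Of those not printed, Irx2 was at 69.0%, above Gbx2. The rest were at 56.0% (Irx3), 55.3% (Lhx9), 53.3% (Shox2), 46.0% (Sim1) and 42.0% (the second Tcf7l2 start). TATAAA, the TATA box, was in 3 of the 10 (the second Tcf7l2 start, Shox2 and Sim1) and in 13.6% of all promoters. CTTTGAT and CTTTGAA, the letters that Tcf7l2 and other TCF/LEF factors bind, and TAATTA, a homeodomain core, were in none of the 10, against 3.73%, 5.14% and 5.30% of all promoters. All motifs were searched on both strands. The searches describe letters in a window and were not tied to any binding measured here.

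At E12.5 all 10 genes were detected in tissue labelled telencephalon, from 1.51 TPM (Foxb1 in ff No 7) to 263.33 TPM (Tcf7l2 in ff No 4). For 9 of them the 3 ff libraries were spread more widely than the 3 dcKO libraries. The highest library over the lowest came to 1.08 in dcKO and 3.43 in ff for Foxb1 and to 1.18 in dcKO and 2.09 in ff for Tcf7l2. Both groups were narrow for Gbx2 (1.06 in dcKO and 1.09 in ff) and Barhl2 (1.07 in dcKO and 1.10 in ff), and Sim1 was the exception (2.01 in dcKO and 1.52 in ff). Summed over the 10 genes, the dcKO libraries No 2, No 6 and No 10 held 423, 400 and 394 TPM, and the ff libraries No 4, No 7 and No 9 held 440, 261 and 323 TPM. The dcKO libraries lay between the ff libraries, with ff No 4 above all of them. In edgeR's quasi-likelihood test none of the 10 genes passed an adjusted p of 0.05. Over all 17853 genes tested at that stage, 0.0392% were called higher in dcKO and 0.151% lower. Among the 10 genes, 3 had an unadjusted p under 0.05 (Barhl2, Pou4f1 and Shox2), and DESeq2 called 2 higher (Barhl2 and Pou4f1). Of all genes tested, 19.2% had an unadjusted p under 0.05, and DESeq2 called 1.66% higher and 5.11% lower. The log2 difference was positive for 9 of the 10, with a median of 0.34, against a median of 0.01 over all genes tested. In 4 of the 10 genes every dcKO library lay above every ff library in TPM, and in none did every dcKO library lie below. Over all genes the shares were 10.1% above and 13.3% below.

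**Figure D1:**
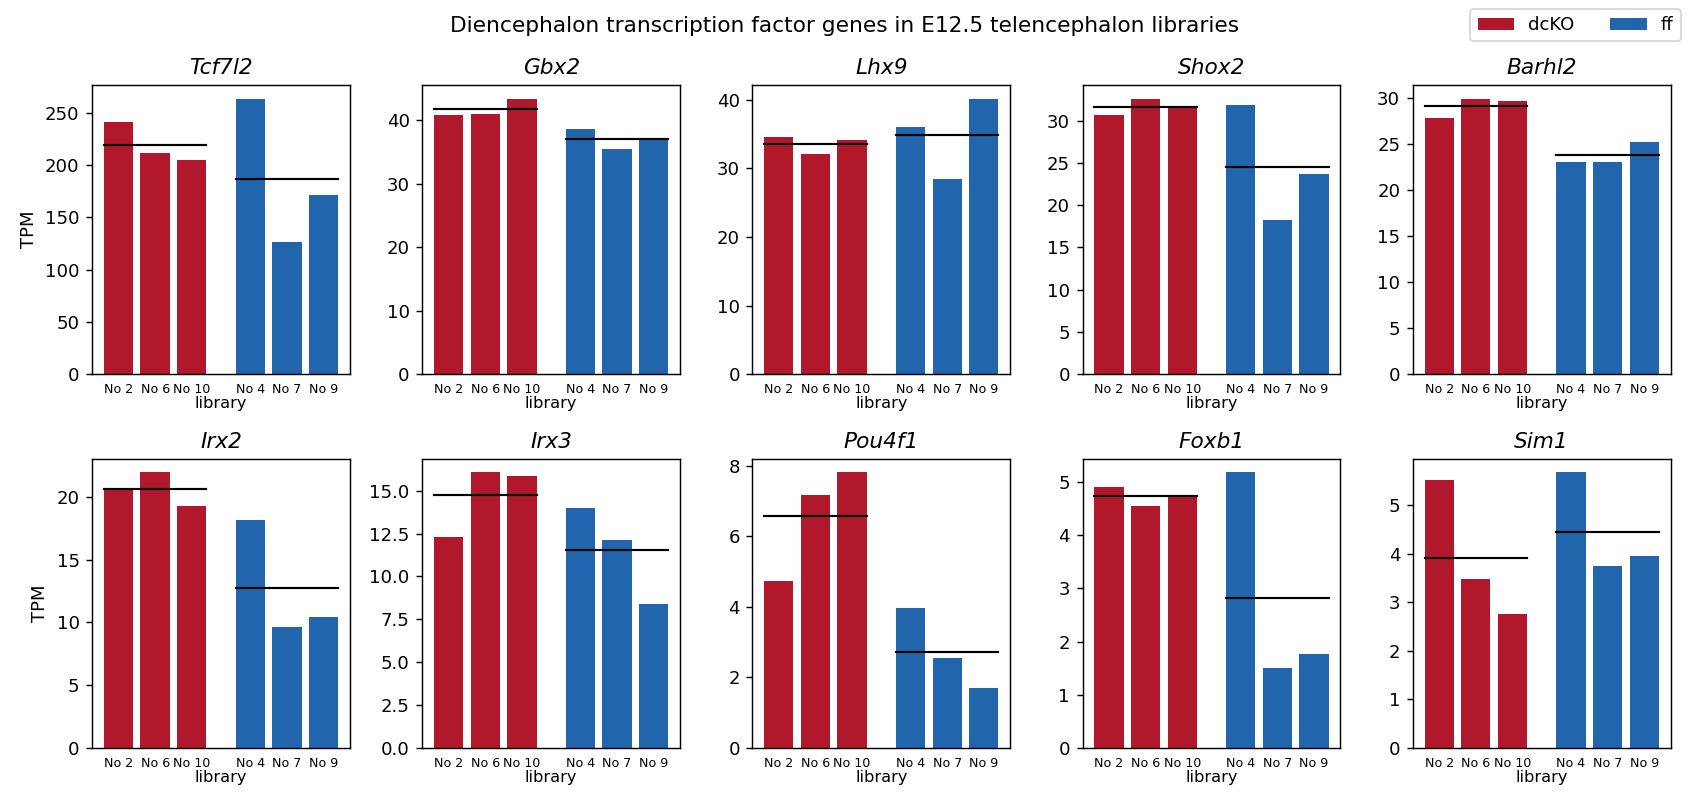
TPM (vertical axes, from 0) of each gene in each E12.5 library, with the 3 dcKO libraries left of the 3 ff libraries and a black line at each group's mean. Gbx2, Barhl2, Irx2 and Pou4f1 are the 4 genes in which the groups do not overlap, and for Tcf7l2, Foxb1 and Sim1 the highest of all 6 libraries is ff No 4.

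Among the thalamic factors, Tcf7l2 stood highest of the 10 in every group. It encodes a high-mobility-group protein that carries the response to Wnt signalling and marks the thalamus, habenula and pretectum. It had 241.32, 211.02 and 204.81 TPM in the dcKO libraries No 2, No 6 and No 10, against 263.33, 126.24 and 171.02 TPM in the ff libraries No 4, No 7 and No 9. The groups overlapped, with the highest and the lowest of the 6 values both in ff (log2 fold change 0.35, SE 0.22, edgeR adjusted p = 0.45). The difference was 0.65 (edgeR adjusted p = 0.060) without ff No 4 and 0.16 (edgeR adjusted p = 0.62) without ff No 7. Gbx2, a homeobox gene needed in thalamic neurons, had 40.82, 41.03 and 43.4 TPM in dcKO and 38.59, 35.5 and 37.08 TPM in ff. Its groups did not overlap, but the shift was small (0.16, SE 0.09, edgeR adjusted p = 0.38). Lhx9, a LIM-homeobox gene of the early thalamus and pretectum, had 34.6, 32.03 and 34.09 TPM in dcKO, inside the ff values of 36.07, 28.43 and 40.13 TPM (0.04, SE 0.12, edgeR adjusted p = 0.90). Shox2, a homeobox gene of the caudal thalamus, had 30.64, 32.6 and 31.73 TPM in dcKO and 31.8, 18.19 and 23.69 TPM in ff. Here ff No 4 lay among the dcKO libraries while No 7 and No 9 were lower (0.29, SE 0.11, edgeR adjusted p = 0.22).

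Barhl2, a BarH-like homeobox gene of the diencephalon, had 27.8, 29.87 and 29.59 TPM in dcKO and 23.03, 23.01 and 25.21 TPM in ff. Its groups were apart and narrow (mean 29.1 ± 1.12 TPM in dcKO and 23.8 ± 1.26 TPM in ff, SD, n = 3 each), with a log2 fold change of 0.34 (SE 0.08, edgeR adjusted p = 0.094; DESeq2 adjusted p = 0.019). Pou4f1, which encodes the POU factor Brn3a of habenular neurons, showed the largest difference of the 10. It had 4.73, 7.16 and 7.81 TPM in dcKO, against 3.97, 2.54 and 1.69 TPM in ff. Every dcKO library was above every ff library, at a log2 fold change of 1.16 (SE 0.28, edgeR adjusted p = 0.096; DESeq2 adjusted p = 0.0032). Without dcKO No 2, the lowest of its group, edgeR gave 1.38 with an adjusted p of 0.040, and called 76 of 18298 genes higher. Pou4f1 was not called without any other single library. The edgeR adjusted p was then from 0.076 (without ff No 4) to 0.43 (without dcKO No 6 or No 10). The authors' deposited table, whose header states neither the direction of its contrast nor any shrinkage, lists an adjusted p of 0.015 for Barhl2 (log2 fold change 0.29) and 0.0068 for Pou4f1 (0.96) at this stage.

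Irx2 and Irx3, Iroquois homeobox genes expressed from the thalamus backwards through the midbrain, were spread widely among the ff libraries. Irx2 had 20.53, 21.94 and 19.29 TPM in dcKO and 18.15, 9.61 and 10.39 TPM in ff, with ff No 4 close to the dcKO libraries (0.59, SE 0.35, edgeR adjusted p = 0.42). Irx3 had 12.28, 16.06 and 15.86 TPM in dcKO and 13.99, 12.15 and 8.40 TPM in ff (0.35, SE 0.18, edgeR adjusted p = 0.34). Both groups of Irx3 overlapped. Foxb1, a forkhead gene of the mammillary hypothalamus, had 4.91, 4.54 and 4.74 TPM in dcKO and 5.18, 1.51 and 1.77 TPM in ff. The single high value in ff was again No 4 (0.72, SE 0.43, edgeR adjusted p = 0.41). Without ff No 4, edgeR called Foxb1 (1.57, adjusted p = 0.022) and Irx2 (1.19, adjusted p = 0.021) higher in dcKO. It called 45 of 18341 genes higher in that fit. Since ff No 4 is the highest ff library for both genes, leaving it out widens their differences. With any other library left out neither was called, at an edgeR adjusted p of 0.48 to 0.72. Sim1, a basic helix-loop-helix PAS gene of the paraventricular and supraoptic hypothalamus, was the 1 gene of the 10 with a negative difference. It had 5.52, 3.47 and 2.75 TPM in dcKO and 5.67, 3.74 and 3.95 TPM in ff, with overlapping groups (-0.18, SE 0.28, edgeR adjusted p = 0.77).

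Library by library, ff No 7 was the lowest of the 6 for 7 of the 10 genes and ff No 9 for 2, while ff No 4 was the highest for 3 and the lowest for none. Fewer cells of a type and less RNA per cell cannot be told apart in such bulk libraries. In other lists of the diencephalon and midbrain ff No 4 was the highest ff library too, but its distance from No 7 and No 9 varied. It was small for the 7 further thalamus genes, at 107, 88.6 and 90.1 TPM in ff No 4, No 7 and No 9. In dcKO No 2, No 6 and No 10 these summed to 102, 92.1 and 96.3 TPM. The 10 genes of a list for the rostral thalamus, pretectum and habenula, which include the zinc-finger factors Gata2 and Gata3 and the Iroquois genes Irx1 and Irx5, summed to 151, 150 and 150 TPM in dcKO, against 164, 83.9 and 91.8 TPM in ff No 4, No 7 and No 9. The 15 midbrain and hindbrain genes summed to 11.1, 12.1 and 10.3 TPM in dcKO and 9.87, 5.66 and 3.39 TPM in ff, with 5 of them under 0.1 TPM in every dcKO library and 7 in every ff library. Choroid plexus genes, 12 in all, ran differently, at 588 to 611 TPM in dcKO and 317, 373 and 581 TPM in ff No 4, No 7 and No 9. The 16 dorsal telencephalon genes summed to 1090 to 1190 TPM in dcKO and 1400 to 1670 TPM in ff, so that there the groups were apart in the other direction. The part of these shifts in the values of the 10 genes was not tested. Sex moves with the genotype too, since ff No 7 is the female library of this stage. With sex as a covariate edgeR called none of the 10 genes, and none was called without ff No 7. Because ff No 7 is the only female here, both fits take the same library out of the difference. Tcf7l2, for example, was at 0.16 in each. As the main fit called none of the 10 genes either, these fits cannot show what part sex has.

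By test, none of the other lists held a called gene at E12.5 except that of the dorsal telencephalon, in which 4 of 16 genes were lower. Among these were Emx1 (given above), Eomes, which marks intermediate progenitors (-0.74, SE 0.07, edgeR adjusted p = 0.014), and Fezf2, a factor of deep-layer projection neurons (-0.57, SE 0.07, edgeR adjusted p = 0.047). The median log2 difference was 0.74 for the 10 genes of the rostral thalamus, pretectum and habenula, 0.01 for the 7 further thalamus genes, 0.20 for the 14 hypothalamus genes tested and 0.62 for the 6 midbrain and hindbrain genes tested. It was 0.33 for the 11 cortical hem and Cajal-Retzius genes, 0.51 for the 12 choroid plexus genes, 0.02 for the 15 ventral telencephalon genes and -0.54 for the dorsal telencephalon genes. Close relatives of the 10 genes (14 genes) had a median of 0.32 and Wnt response genes (9) a median of 0.10.

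**Figure D2:**
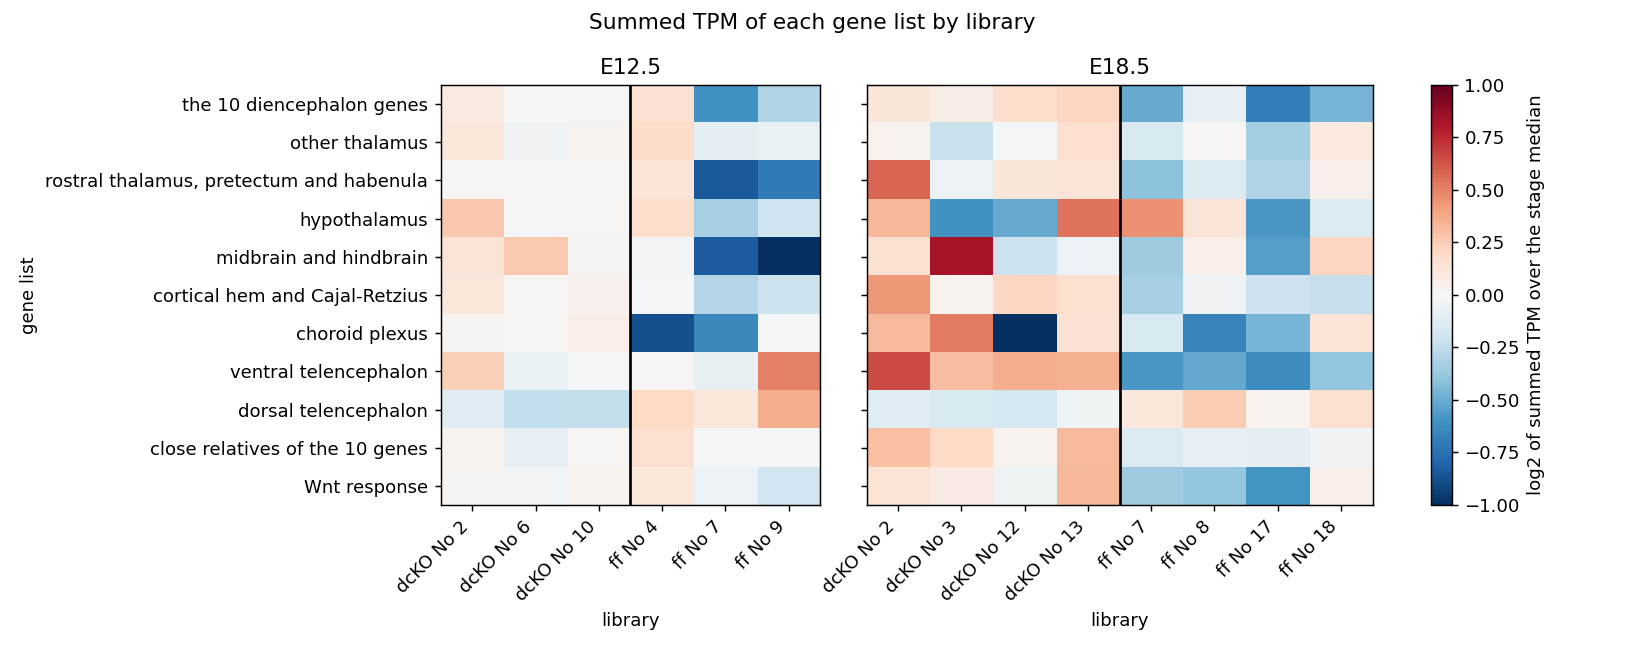
Summed TPM of each gene list in each library, as the log2 of its ratio to the stage's median library (colour, drawn at the limit where it passes -1 or 1), with dcKO left of ff at each stage. At E12.5 the diencephalon, rostral thalamus and midbrain lists are low in ff No 7 and ff No 9 and not in ff No 4. At E18.5 the 10 diencephalon genes sum to 24.0 to 26.4 TPM in the libraries labelled dcKO and 14.2 to 21.5 TPM in ff. Without Tcf7l2 these sums overlap.

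At E18.5 the 10 genes together were rare, and 4 of the 9 that could be tested were higher in the libraries labelled dcKO: Tcf7l2, Gbx2, Barhl2 and Pou4f1. Summed TPM of the 10 was 24.8, 24.0, 25.7 and 26.4 in the libraries labelled dcKO (No 2, No 3, No 12 and No 13) and 16.0, 21.5, 14.2 and 16.5 in ff (No 7, No 8, No 17 and No 18). These groups were apart, and Tcf7l2 was the largest term in every library but ff No 18. With Tcf7l2 left out of the sum the groups overlapped, since No 3 labelled dcKO then lay below ff No 8. Changes were common over all genes at this stage: 15.6% of 17974 genes tested were called higher and 16.6% lower. Shox2 fell under the filter on low counts, so no test is given for it. The 9 tested genes had a median log2 difference of 0.48, against 0.03 over all genes, and 7 of the 9 were positive. In TPM, Tcf7l2, Gbx2 and Pou4f1 were higher in every library labelled dcKO than in every ff library, and no gene was lower in all of them. Over all genes 23.1% and 7.56% were so.

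**Figure D3:**
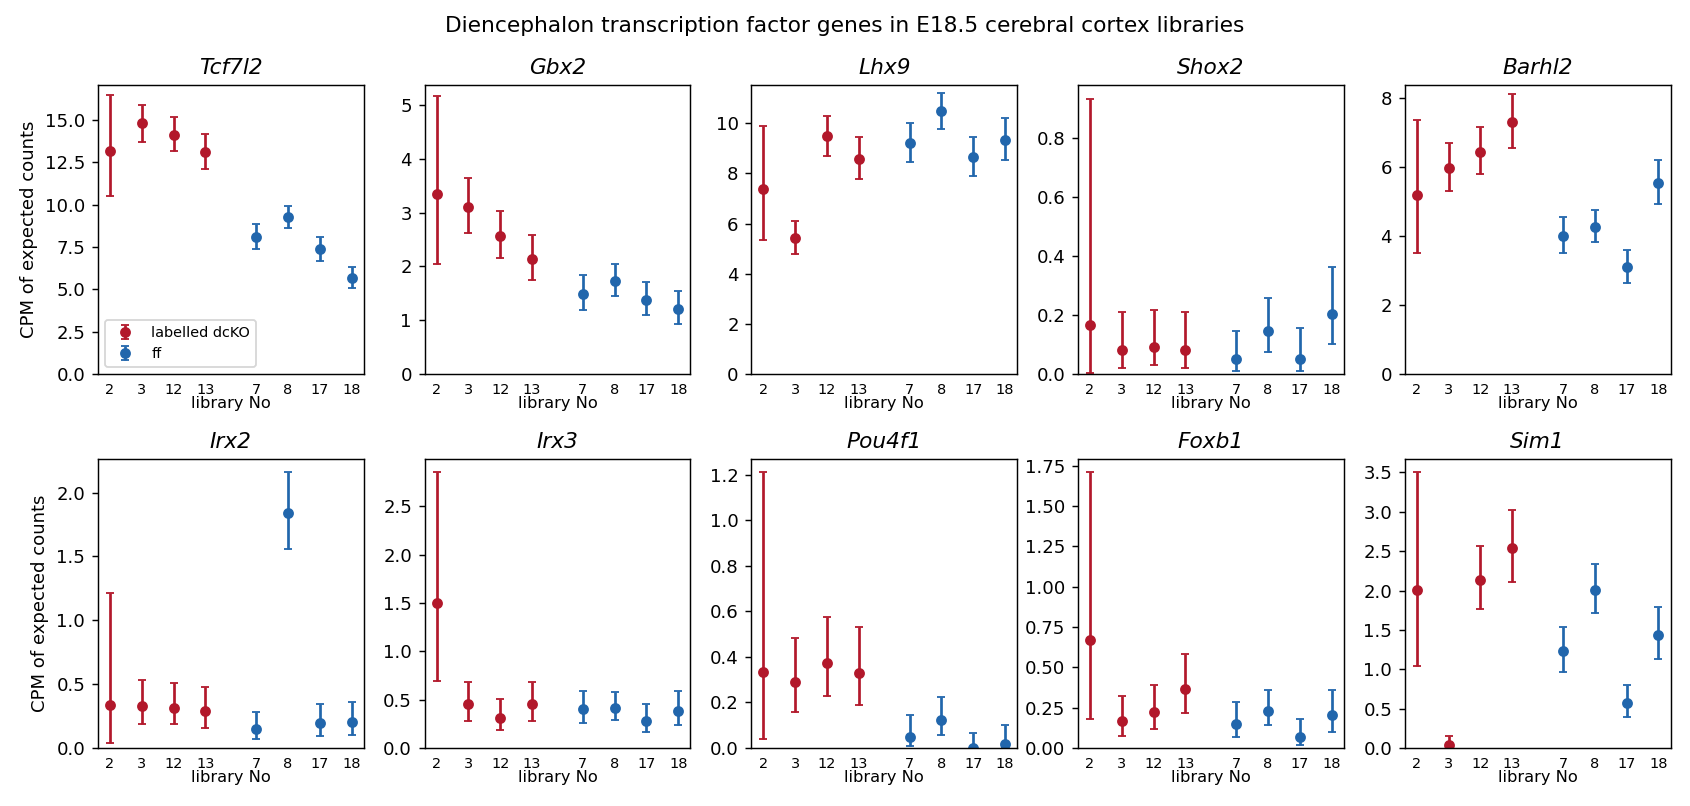
CPM (expected counts scaled to a library of 1000000, vertical axes, from 0) of each gene in each E18.5 library, with libraries labelled dcKO left of ff and bars for the 95% exact Poisson interval, which covers counting error only. The points of Tcf7l2, Gbx2 and Pou4f1 are apart between groups, but some bars of Gbx2 and Pou4f1 overlap between them. Irx2 is high in ff No 8 alone and Sim1 is near 0 in the library No 3 labelled dcKO alone.

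Tcf7l2 had 8.51, 11.2, 9.96 and 10.6 TPM in the libraries labelled dcKO and 5.54, 6.12, 4.90 and 4.05 TPM in ff. That is 1.95 times the ff mean, with no overlap (log2 fold change in counts 0.75, SE 0.14, edgeR adjusted p = 0.0012). Gbx2 had 4.44, 3.59, 3.20 and 2.30 TPM in the libraries labelled dcKO and 1.83, 2.16, 1.76 and 1.52 TPM in ff. Its lowest value in the libraries labelled dcKO was just above its highest in ff (0.79, SE 0.20, edgeR adjusted p = 0.0088). Both calls held in each of the 16 other settings and left-out libraries tried. Barhl2 had 4.48, 5.04, 5.73 and 6.46 TPM in the libraries labelled dcKO and 3.47, 3.83, 2.59 and 4.77 TPM in ff. Its groups overlapped through ff No 18, and the call was narrow (0.48, SE 0.16, edgeR adjusted p = 0.041). It was lost in 7 of 16 alternatives, which included leaving out ff No 7 (edgeR adjusted p = 0.11), ff No 8 (0.084), ff No 17 (0.13), or the libraries labelled dcKO No 3 (0.057), No 12 (0.088) or No 13 (0.14).

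Pou4f1 had the largest difference in this stage as well, but from few counts: 2, 14, 20 and 16 in the libraries labelled dcKO, against 3, 10, 0 and 1 in ff, or 52 against 14 in all. As CPM these are 0.334, 0.288, 0.371 and 0.327 in the libraries labelled dcKO and 0.0498, 0.122, 0 and 0.0184 in ff, where the 0 of ff No 17 has an upper 95% Poisson limit of 0.0652. The groups were apart (log2 fold change 2.49, SE 0.61, edgeR adjusted p = 0.0084). Without ff No 8, which holds 10 of the 14 ff counts, the difference was 3.56 (edgeR adjusted p = 0.0025). DESeq2 gave 2.58 and no adjusted p for this gene. Its deposited TPM of 0.14, 0.48, 0.39 and 0.34 in the libraries labelled dcKO and 0.02, 0.05, 0 and 0.01 in ff are further apart than the counts, and the CPM behind 1 TPM ran from 0.600 to 2.39 in the libraries labelled dcKO and from 1.84 to 2.49 in the 3 ff libraries with counts. For the comparison of genotypes at E18.5, levels of the genes under 1 TPM are therefore given as counts and CPM.

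Lhx9 had 4.11, 2.76, 4.69 and 4.53 TPM in the libraries labelled dcKO and 4.09, 5.09, 4.07 and 4.70 TPM in ff. The groups overlapped, with the lowest value in No 3 labelled dcKO (-0.39, SE 0.15, edgeR adjusted p = 0.071; DESeq2 adjusted p = 0.045). Without the library No 12 labelled dcKO, edgeR called Lhx9 lower as well. DESeq2 called 18.6% of all genes lower at this stage. Foxb1 was at 4, 8, 12 and 18 counts in the libraries labelled dcKO and 9, 19, 4 and 11 in ff, with overlapping groups (0.67, SE 0.48, edgeR adjusted p = 0.31). Irx3 was at 9, 22, 17 and 22 counts in the libraries labelled dcKO and 24, 34, 16 and 21 in ff (0.39, SE 0.42, edgeR adjusted p = 0.50). In CPM, 7 of the 8 Irx3 values lay between 0.283 and 0.452 and only the shallow library No 2 labelled dcKO was higher, at 1.5 with a 95% Poisson interval of 0.688 to 2.86. Without that library the difference was 0.01 (edgeR adjusted p = 0.98). Shox2 was at 1, 4, 5 and 4 counts in the libraries labelled dcKO and 3, 12, 3 and 11 in ff, so the shallow library's level rests on 1 count.

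**Figure D4:**
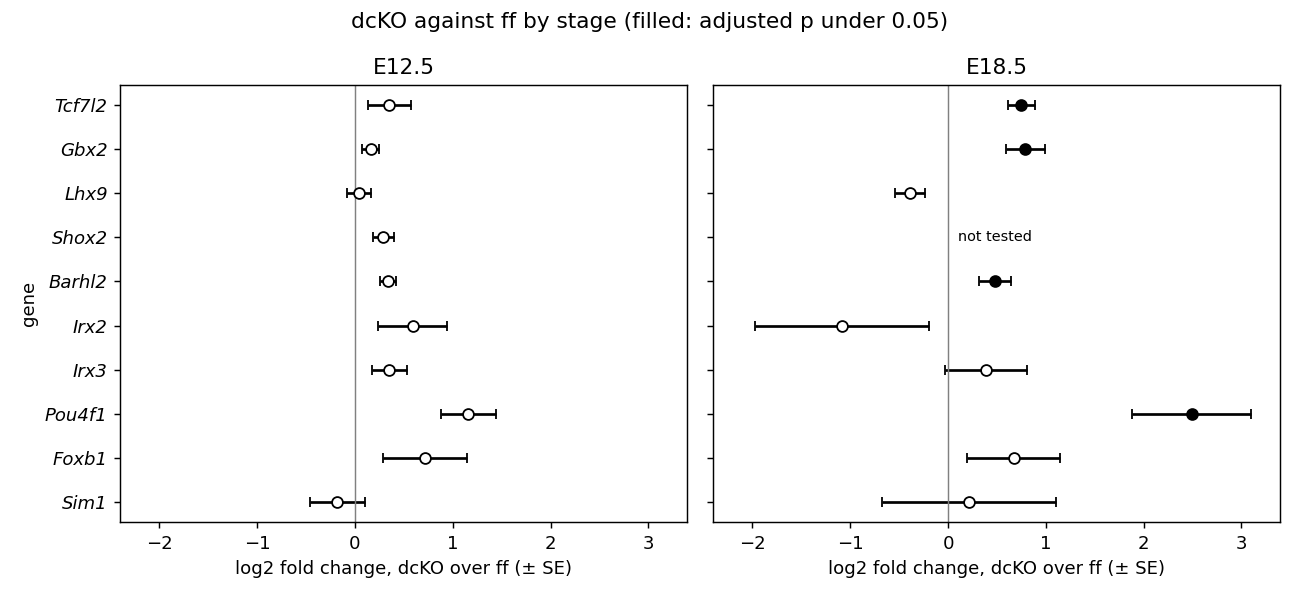
log2 fold change in counts, dcKO over ff, with its SE, for each gene at E12.5 (left) and E18.5 (right), where filled points have an adjusted p under 0.05. No point is filled at E12.5, and the 4 filled points at E18.5 are Tcf7l2 (0.75), Gbx2 (0.79), Barhl2 (0.48) and Pou4f1 (2.49).

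For Irx2 and Sim1 the E18.5 comparison rested on 1 library each. Irx2 had 2, 16, 17 and 14 counts in the libraries labelled dcKO (0.286 to 0.334 CPM), and 9, 151, 11 and 11 counts in ff (0.149, 1.84, 0.194 and 0.202 CPM in No 7, No 8, No 17 and No 18). All libraries but ff No 8 lay low, and those labelled dcKO were above the other 3 ff libraries. The difference was -1.08 (SE 0.89, edgeR adjusted p = 0.39) with ff No 8 and 0.65 (edgeR adjusted p = 0.24) without it. The same library held Irx4, the neighbour of Irx2 in the Iroquois cluster, at 51 counts (0.622 CPM), where the other 7 libraries held 0. Genes of the epidermis, listed after these values were seen, were present there as well: Krt5 and Krt14, the keratins of basal skin cells, were at 53.9 and 27.1 CPM in ff No 8 and at most 0.0614 and 0.329 in the 4 libraries labelled dcKO and 0.0368 and 0.0919 in the other 3 ff libraries. Flg, which encodes filaggrin of the outer skin layers, was at 6.39 CPM in ff No 8 and 0 elsewhere. Of 11 such genes 10 were in the tables, and ff No 8 was the highest of the 8 libraries for all 10, with a sum of 179 CPM, against 18.7 to 24.7 in the libraries labelled dcKO and 17.8, 20.8 and 18.1 in ff No 7, No 17 and No 18. The part of epidermal RNA in the Irx2 value was not tested. At E12.5 the sum of these genes was 66.4, 74.4 and 78.7 CPM in dcKO and 123, 83.7 and 13.8 in ff No 4, No 7 and No 9, and Krt5 was at 0 in ff No 9.

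Sim1 had 12, 2, 115 and 124 counts in the libraries labelled dcKO (2.01, 0.0411, 2.13 and 2.54 CPM) and 74, 165, 32 and 78 in ff (1.23, 2.01, 0.565 and 1.43 CPM). No 3 labelled dcKO stood apart, with an upper 95% Poisson limit of 0.149 that was below every other library's lower limit. The groups overlapped, and without No 3 the lowest library labelled dcKO (No 2) and the highest in ff (No 8) were both at 2.01 CPM. The difference was 0.21 (SE 0.89, edgeR adjusted p = 0.89), or 0.67 (adjusted p = 0.17) without that library. Otp, a homeobox gene expressed with Sim1 in neuroendocrine hypothalamus and in the medial amygdala, was at 2 counts in No 3 labelled dcKO (0.0411 CPM). It was at 3.12 to 5.68 CPM in the other 3 libraries labelled dcKO and 1.75 to 2.60 in ff. Avp, which encodes vasopressin, was at 0.0411 CPM in No 3, at 0.314 to 1.76 in the others labelled dcKO and at 0.512 to 2.82 in ff. Fezf1, a zinc-finger gene of the ventromedial hypothalamus and amygdala, was at 1.46 CPM in No 3, at 5.85 to 9.08 in the others labelled dcKO and at 4.40 to 6.23 in ff. Otp, Avp and Fezf1 are named here after their values were seen. Over the 17 hypothalamus genes the summed level was 10.4 to 23.1 TPM in the libraries labelled dcKO and 10.6 to 21.7 TPM in ff. The groups overlapped, and the low sum of No 3 (10.4 TPM) was close to those of No 12 labelled dcKO (11.2 TPM) and ff No 17 (10.6 TPM). What tissue each library took in was not tested.

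**Figure D5:**
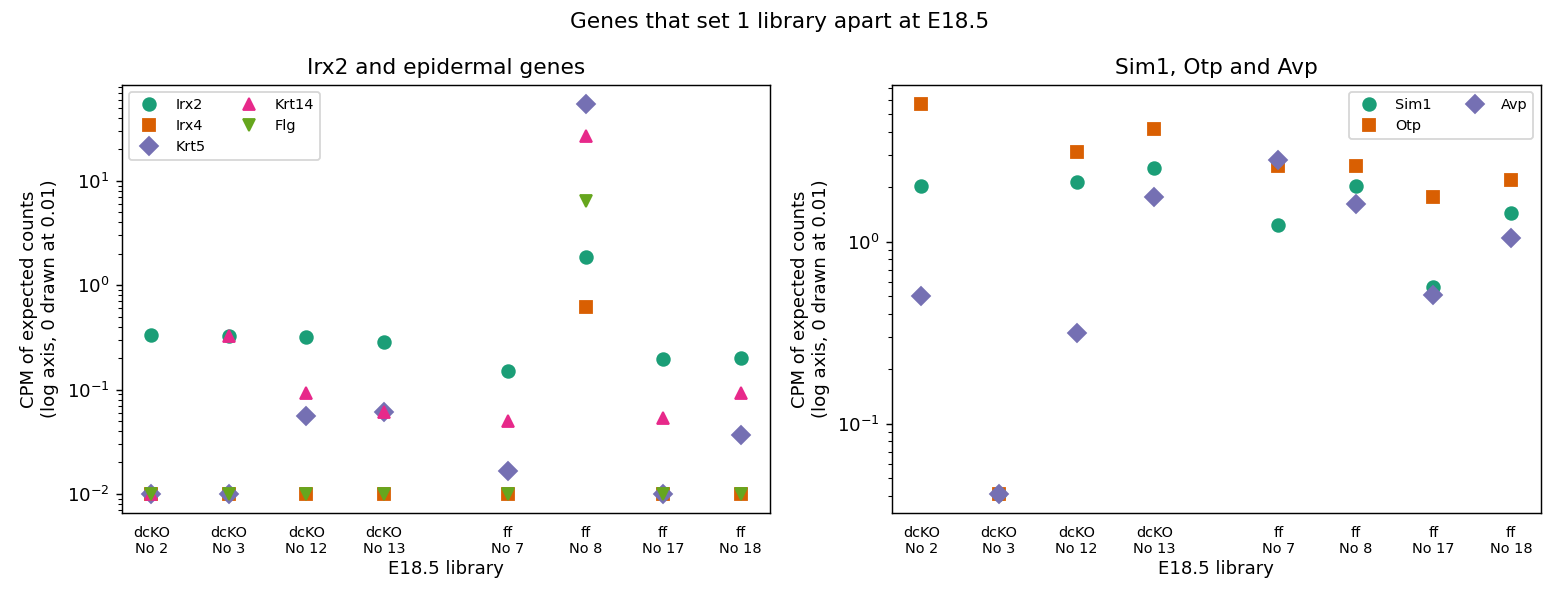
CPM (log axis, 0 drawn at 0.01) in the E18.5 libraries, those labelled dcKO left of ff, for Irx2 with Irx4 and epidermal genes (left) and for Sim1 with Otp and Avp (right). ff No 8 holds Irx2 at 1.84 and Krt5 at 53.9 CPM, and No 3 labelled dcKO holds Sim1, Otp and Avp at 0.0411 CPM each.

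A further library stood apart in choroid plexus transcripts. In No 12 labelled dcKO, Ttr, the main choroid plexus transcript, was at 1.82 TPM, against 2463.57 to 3202.92 TPM in the others labelled dcKO and 1400.54 to 2453.94 TPM in ff. The 12 choroid plexus genes summed to 22.2 TPM in No 12, against 2960, 3390 and 2610 TPM in No 2, No 3 and No 13 labelled dcKO and 2130, 1490, 1710 and 2600 TPM in ff. With No 12, none of the 12 passed edgeR's test and their median log2 difference was 0.05. Without it, a comparison added after seeing the data, all 12 differences were positive with a median of 0.47, and edgeR called 2 (Calml4 and Kl) higher, where 13.1% of all genes were called higher. Tcf7l2, Gbx2 and Pou4f1 were called with and without that library, whereas Barhl2 was not called without it, as given above. Without the shallow library No 2 labelled dcKO all 4 were called. With sex as a covariate all 4 genes were called, Barhl2 at 0.71 (edgeR adjusted p = 0.013) and Pou4f1 at 3.46 (0.013). Every library labelled dcKO is male, so that fit sets them against the male ff No 7 and No 17 alone. It takes the female ff No 8 and No 18 out of the difference and cannot separate sex from those libraries.

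Other diencephalon genes moved less uniformly at E18.5. Of the 7 further thalamus genes, 3 were higher and 2 lower in the libraries labelled dcKO. The higher ones were Prox1, a homeobox gene (0.34, SE 0.09, edgeR adjusted p = 0.011), Lef1, a Wnt effector related to Tcf7l2 (0.63, SE 0.17, edgeR adjusted p = 0.016), and Rora, a nuclear receptor of thalamic neurons (0.38, SE 0.11, edgeR adjusted p = 0.020). No gene passed the test among the 4 tested of the rostral thalamus, pretectum and habenula list, the 6 tested of the hypothalamus list or the 1 tested of the midbrain and hindbrain list. Their medians were 0.29, 0.32 and 0.09. For the close relatives of the 10 genes, 3 of 6 tested were higher: Tcf7l1 (1.02, SE 0.12, edgeR adjusted p = 8.0e-05), Gbx1 (0.93, SE 0.19, edgeR adjusted p = 0.0034) and Lef1. For the 9 Wnt response genes, Axin2 (0.37, SE 0.07, edgeR adjusted p = 0.0019) and Lef1 were higher.

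Markers within the telencephalon moved with genotype at the same time. Of 15 ventral telencephalon genes 13 were higher in the libraries labelled dcKO, with a median of 0.80. Their summed level was 818 to 1040 TPM in those libraries and 428 to 505 TPM in ff. Examples are the GABA transporter gene Slc32a1 (0.89, SE 0.05, edgeR adjusted p = 8.3e-07), Gad2 of GABA synthesis (0.83, SE 0.07, edgeR adjusted p = 6.8e-06) and Isl1 (0.96, SE 0.09, edgeR adjusted p = 9.7e-06). The dorsal list was mixed, with 6 of 16 genes higher and 8 lower: the projection neuron gene Neurod6 (-1.29, SE 0.06, edgeR adjusted p = 2.0e-07) was lower and the progenitor gene Pax6 (0.95, SE 0.07, edgeR adjusted p = 3.4e-06) was higher. Of 11 cortical hem and Cajal-Retzius genes 5 were higher, Lhx1 (1.25, SE 0.17, edgeR adjusted p = 0.00019) and Reln (0.58, SE 0.07, edgeR adjusted p = 6.2e-05) among them, and Rspo2 was lower (-0.92, SE 0.09, edgeR adjusted p = 2.1e-05). Whether the rise of Tcf7l2, Gbx2, Barhl2 and Pou4f1 goes with these shifts was not tested. The authors' deposited table lists adjusted p values of 1.6e-05 for Tcf7l2, 0.0045 for Gbx2, 0.036 for Barhl2, 0.0091 for Pou4f1 and 0.051 for Lhx9 at E18.5.

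The effect of genotype was also compared between the stages in 1 fit of all 14 libraries. None of the 10 genes passed an adjusted p of 0.05 in edgeR, where 7.12% of 19327 genes were called with a higher effect at E18.5 and 9.41% with a lower one. Gbx2 came nearest, with a log2 effect 0.56 higher at E18.5 than at E12.5 (SE 0.19, adjusted p = 0.057), and was the 1 gene of the 10 with an unadjusted p under 0.05. Over all genes, 31.4% had an unadjusted p under 0.05. DESeq2 called Gbx2 (0.57, adjusted p = 0.024), as it did 10.7% of all genes in that direction. The difference was 0.36 (SE 0.28, edgeR adjusted p = 0.42) for Tcf7l2, 0.11 (SE 0.20, edgeR adjusted p = 0.76) for Barhl2 and 1.26 (SE 0.66, edgeR adjusted p = 0.21) for Pou4f1. The calls at E18.5 alone therefore do not show that these 3 genes responded differently at the 2 stages. Without ff No 8 of E18.5, edgeR called the difference for Gbx2 (0.67, adjusted p = 0.027) and Pou4f1 (2.37, adjusted p = 0.022).

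The difference between stages was far larger than that between genotypes. In ff, all 10 genes were lower in E18.5 cortex than in E12.5 telencephalon, and over all genes 31.5% were higher and 29.9% lower in edgeR. Stage, dissected region and any sequencing run cannot be told apart in this contrast. Shox2 had the largest drop, with a mean of 0.172 ± 0.136 TPM at E18.5 (SD, n = 4) and 24.6 ± 6.85 TPM at E12.5 (SD, n = 3), a log2 fold change of -8.04 (SE 0.22, edgeR adjusted p = 3.3e-13). Pou4f1 (-6.06), Irx3 (-5.46), Tcf7l2 (-4.85), Foxb1 (-4.72), Gbx2 (-4.46), Irx2 (-4.18) and Sim1 (-3.45) lay between. The value of Irx2 rests on ff No 8 of E18.5, without which it was -5.99 (edgeR adjusted p = 1.7e-09). DESeq2 called 9 of the 10 lower, all but Irx2, and 30.7% of all genes. The smallest drops were those of Lhx9 and Barhl2. Lhx9 averaged 4.49 ± 0.497 TPM at E18.5 (SD, n = 4) and 34.9 ± 5.94 TPM at E12.5 (SD, n = 3), a log2 fold change of -2.92 (SE 0.15). Barhl2 averaged 3.67 ± 0.902 TPM at E18.5 (SD, n = 4) and 23.8 ± 1.26 TPM at E12.5 (SD, n = 3), a log2 fold change of -2.71 (SE 0.14). Other diencephalon lists fell too, with all 10 genes of the rostral thalamus, pretectum and habenula, 14 of 15 hypothalamus genes tested and 6 of 7 further thalamus genes lower. Falls were also called in the other lists, but their size differed. Lower as well were 9 of 11 cortical hem and Cajal-Retzius genes, 11 of 15 ventral telencephalon genes and 6 of 9 Wnt response genes. So were 13 of 14 close relatives, a list that shares genes with the diencephalon lists. The median log2 difference was -4.59 for the 10 genes, -5.28 for the rostral thalamus, pretectum and habenula list and -4.94 for the hypothalamus list. For the further thalamus genes it was -0.59. It was -2.78 for the cortical hem and Cajal-Retzius list, -0.70 for the ventral telencephalon, -4.04 for the close relatives and -1.27 for Wnt response. Of 16 dorsal telencephalon genes 9 were higher and 6 lower, and of 12 choroid plexus genes 1 was higher and 2 lower.

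The order of levels per transcript length therefore changed with stage. At E12.5 Tcf7l2 led clearly, at a mean of 219 TPM in dcKO and 187 TPM in ff, and Gbx2 came next at 41.8 TPM in dcKO and 37.1 TPM in ff. Gbx2 and Lhx9 overlapped in ff, as did Lhx9 with Shox2 and Shox2 with Barhl2, so their order there does not exceed the spread. The lowest 3 genes at E12.5 were Pou4f1, Foxb1 and Sim1 in both genotypes, and neighbours among them overlapped. At E18.5 Tcf7l2 was still highest, at 10.1 TPM in the libraries labelled dcKO, apart from Barhl2 at 5.43 TPM. In ff its 5.15 TPM overlapped Lhx9 at 4.49 TPM, which overlapped Barhl2 at 3.67 TPM. Gbx2 followed at 3.38 TPM in the libraries labelled dcKO and 1.82 TPM in ff, and the other 6 genes were under 1 TPM on average in both groups.

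Genes whose levels ran most like the sum of the 10 were sought among 14805 genes with a mean of at least 1 TPM at both stages, ranked by the lower of the stages' Pearson r over 6 libraries at E12.5 and 8 at E18.5. The 5 closest were Tsnax (0.96 and 0.94), Ankrd10 (0.97 and 0.93), Chga (1.0 and 0.93), Malat1 (0.93 and 0.93) and Arl4c (0.94 and 0.93). These r values describe libraries that share genotype, depth and dissection, and carry no test. Tcf7l2 is the largest term of the sum in most libraries, and Ankrd10, Malat1 and Arl4c moved to ranks 44, 79 and 14 when it was left out of the sum, and Tsnax and Chga to ranks 2 and 4. Chga, which encodes chromogranin A of secretory vesicles, ranged from 47.8 to 49.5 TPM in dcKO and from 36.7 to 51.8 TPM in ff at E12.5, and from 89.2 to 99.0 TPM in the libraries labelled dcKO and 82.3 to 90.6 TPM in ff at E18.5.

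Of the 10 genes, 4 overlap a gene on the opposite strand in the mouse annotation: Gbx2 with D130058E05Rik, Shox2 with Rsrc1, Irx3 with Irx3os and Foxb1 with B230323A14Rik. The library kit keeps strand, per the labels, but the strand setting used in counting is not given in the sources used here, so part of these genes' counts may belong to the partner.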

How the data were processed

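RNA was extracted with a column kit and made into stranded mRNA libraries, per the labels' protocols. Per the submitters' processing notes, the tools were Trim Galore, STAR, RSEM and DESeq2. Versions, the genome build and the counting strand are not given in the sources used here. Deposited by the authors were expected counts and TPM from RSEM, per the file headers, with 1 column per library. The authors' DESeq2 tables gave a mean normalized signal (not used further), log2 fold changes and p-values, per the file headers.

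Columns were assigned by their table's stage and genotype word. The library names in the sample descriptions disagree with the titles, so the genotype of a column rests on its own name and the titles' numbers. Gene symbols came from the E12.5 DESeq2 table.

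Expected counts were rounded and tested in R 4.3.3 with edgeR 4.0.16 (filterByExpr, TMM, robust quasi-likelihood F test, two-sided, each stage alone), adjusted by Benjamini-Hochberg over all genes, with a threshold of 0.05. The stage contrast and the interaction used 1 fit of 14 libraries. DESeq2 1.42.0, limma 3.58.1 on log2(TPM + 1), other filters and scalings, sex, left-out libraries and, added after seeing the data, a transcript length correction and the choroid plexus list without No 12 of E18.5 were alternatives. CPM used all expected counts, with exact 95% Poisson intervals, which cover counting error only. The scripts were tested on simulated data. All 10 genes were named; from other lists, at most 3 called genes per list and stage, by lowest p. Some genes are not reported here. The 10 genes, the 10 other lists and the tests were chosen with earlier results of these data known. The epidermal genes, Irx4, Otp, Avp and Fezf1 were chosen after their values were seen.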

Additional observations from a re-analysis of the deposited data

Results flagged for a closer look

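The 10 genes and their summed TPM gave 22 sets of 4 E18.5 values, 1 for each genotype, that were searched for a single value far from the rest. In 3 of them 1 library stood out, and chance picks out about 1 in 20. Irx2 was at 2.84 TPM in ff No 8 at E18.5, far above the other 3 ff libraries (0.24 to 0.32 TPM). The value rests on 151 counts, and the library's epidermal genes are given beside it above. Irx3 was at 1.14 TPM in the library No 2 labelled dcKO at E18.5, where the other 3 were at 0.23 to 0.33 TPM, on 9 counts in the shallowest library of that stage. Shox2 was at 0.23 TPM in the same library, where the others labelled dcKO were at 0.06 to 0.08 TPM, on 1 count.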

How the results depend on the processing

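At E18.5 Tcf7l2 and Gbx2 were called higher in every alternative. Over the same alternatives Pou4f1 was called wherever it was tested and given an adjusted p, Barhl2 lost its call in 7 of 16, and Lhx9 was called lower in 3 (DESeq2's Wald test, the length correction and without No 12 labelled dcKO). The number of genes called at E12.5, 34 in edgeR, was 56 with DESeq2 size factors, 1209 with DESeq2's Wald test, 244 with no filter, 9 at a mean of at least 1 CPM, 1 with limma on log2(TPM + 1), 1079 in 1 fit of all 14 libraries, 3 with sex as a covariate and 0 to 571 with a library left out (571 without dcKO No 2, 0 without dcKO No 6 or No 10, 71 and 77 without ff No 9 or No 4, 6 without ff No 7). With a transcript length correction it was 49. Of the 10 genes 0 were called there, but 2 with DESeq2 and 0 to 2 with a library left out. At E18.5 limma on TPM split the calls into 3692 higher and 1120 lower, against 2801 and 2978 in edgeR, and moved the median of all genes to 0.12. For the difference between stages it gave 1982 higher and 448 lower, against 1376 and 1819, and a median of 0.12. That difference was called for 0 of the 10 genes in edgeR, for 1 with DESeq2 size factors, DESeq2's Wald test or a mean of at least 1 CPM, and for 0 to 2 with a library left out. It was called for 3195 genes in all, and for 1690 to 3307 with a library left out, the fewest without dcKO No 10 or No 6 (1733) of E12.5.

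Directions turned in small or single-library effects; where no library is named the cause was not tested. At E12.5 Lhx9 was -0.04 in limma, -0.07 with sex and -0.07 to 0.18 with a library left out, and Sim1 0.05 with the length correction and -0.49 to 0.07 with a library left out. The fit with sex at E12.5 takes the female ff No 7 out of the difference, and Lhx9 was at -0.07 without that library too. At E18.5 Irx2 was 0.74 with sex and -1.41 to 0.65 with a library left out, and Sim1 -0.13 to 0.67. There the fit with sex takes the female ff No 8 and No 18 out of the difference, and the Irx2 value of 0.65 is that without ff No 8. For the difference between stages Pou4f1 was -0.66 in limma, and leaving out a library gave -0.96 to 0.19 for Foxb1, -2.38 to 0.03 for Irx2, 0.00 to 0.25 for Barhl2, -0.37 to 0.04 for Irx3 and -0.07 to 0.80 for Sim1. The stage difference in ff kept its direction for all 10 genes. No paired analysis was possible because the library numbers in the titles differ between genotypes or tie no animals together. Counts below about 20 per library limit Pou4f1, Shox2, Foxb1, Irx2 and Irx3 at E18.5.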
